A study of Mus musculus with 6 samples.

Results

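The insulin-like growth factor (IGF) family described here comprised 10 genes out of 16423 in the deposited table: the ligands Igf1 and Igf2, the receptors Igf1r and Igf2r, and the binding proteins Igfbp2 to Igfbp7. They were taken by gene symbol, and were chosen with their values in the comparison of knockdown with control already known. All 10 symbols had a row. The cells were C3H10T1/2, a mouse mesenchymal stem cell line, driven towards brown adipocytes with 3-isobutyl-1-methylxanthine, dexamethasone, insulin, triiodothyronine, indomethacin and rosiglitazone, and then kept in triiodothyronine, insulin and rosiglitazone. On day 4 they were transfected with a control siRNA (siNC, 3 libraries) or with siRNAs against Ybx1 (siYBX1, 3 libraries), and RNA was taken 48 h later. Both groups are of this 1 wild-type line, differ by the siRNA alone per the labels, and shared the same insulin-containing medium. The protein YBX1 has a cold-shock domain and binds both RNA and DNA. Whether the replicates were separate cultures is not stated, so the p-values speak of the spread among 6 libraries, part or all of which may be technical.

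IGF1 and IGF2 are small secreted hormones related to insulin. Both act through IGF1R, a receptor tyrosine kinase that signals through insulin receptor substrates to PI3K and AKT. IGF2R has no kinase: it carries IGF2 to the lysosome for breakdown and, as the cation-independent mannose 6-phosphate receptor, sorts newly made lysosomal enzymes. The IGF binding proteins hold the hormones in blood and tissue, can block or prolong their action, and are cut by proteases that set the hormones free. In fat, IGF1 and insulin signalling promote the differentiation of preadipocytes.

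Reads recovered from the steps of the deposited values summed to 33072660 to 34084628 for siNC and 30969599 to 34351657 for siYBX1. One library, siNC replicate 1, stood apart from the other controls, with a mean chi-square per gene of 22.9 and 19.7 against 4.42 between siNC replicates 2 and 3. Values without it are given for the results that it moved most. Ybx1 fell from 133 ± 2.98 to 62.9 ± 4.50 FPKM (fragments scaled by gene length and library total; SD, n = 3 each), 47.3% of control (log2 fold change -1.07, SE 0.06, limma adjusted p = 3.98e-06). Among all genes, 2132 of the 10341 tested ones passed an adjusted p of 0.05 (limma). That is 20.6%, with 987 higher (9.54%) and 1145 lower (11.1%) in siYBX1. Of these calls 46.3% were higher, and 29.6% after rescaling each library to TPM. Adipocyte markers (7 genes) summed to 2240 FPKM in siNC replicate 1, 3100 and 3060 in the other controls and 2720 to 3180 in siYBX1. Fabp4 alone gave 1140 to 1950 FPKM of this, Cebpa lay below 1 FPKM, and Cfd was called lower (-0.32). Of the 6 brown adipocyte markers only Cidea and Cox8b reached a mean of 1 FPKM, so the brown label rests on few of them. Mesenchymal progenitor markers summed to 1370 to 1430 FPKM in siNC and 1230 to 1300 in siYBX1, with Col3a1, Eng and Cd44 called lower and Col1a1 called higher (0.36). Smooth muscle markers summed to 571 to 640 and 1980 to 2080 FPKM, with 3 of 3 tested genes higher (Acta2, Tagln and Myl9), while the more specific Myh11 and Cnn1 lay below 1 FPKM. The part of these shifts in the results below was not tested. Macrophage markers other than Cd68 and endothelial markers were near 0. In bulk RNA, fewer cells of a type and less RNA per cell cannot be told apart.

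Igfbp5, the member with the largest fall, Igf2r, which also fell, and Igfbp7, which rose, are the members on which the comparison turns. The 250 bases before their annotated starts are shown with those of Igfbp6, because YBX1 is named for binding the Y-box, whose core is an inverted CCAAT. Sequences are from RefSeq (GRCm38.p6, another build than the GRCm39 of the processing notes), 5′ to 3′ on the gene's strand. Capitals mark the CCAAT core, the TATA box TATAAA and the GC box GGGCGG, each on either strand, and no match overlapped another motif's.
Igfbp5 (chr1:72874866-72875115, minus strand): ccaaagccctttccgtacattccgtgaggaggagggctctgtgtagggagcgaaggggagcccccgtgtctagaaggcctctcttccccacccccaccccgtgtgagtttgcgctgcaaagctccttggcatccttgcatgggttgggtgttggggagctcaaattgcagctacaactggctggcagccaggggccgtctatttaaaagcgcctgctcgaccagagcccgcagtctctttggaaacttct
Igf2r (chr17:12769707-12769956, minus strand): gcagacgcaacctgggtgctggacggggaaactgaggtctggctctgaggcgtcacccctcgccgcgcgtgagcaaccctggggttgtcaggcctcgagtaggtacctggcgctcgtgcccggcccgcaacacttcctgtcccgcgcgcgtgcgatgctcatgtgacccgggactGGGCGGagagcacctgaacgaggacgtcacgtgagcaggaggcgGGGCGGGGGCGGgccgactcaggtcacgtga
Igfbp7 (chr5:77408046-77408295, minus strand): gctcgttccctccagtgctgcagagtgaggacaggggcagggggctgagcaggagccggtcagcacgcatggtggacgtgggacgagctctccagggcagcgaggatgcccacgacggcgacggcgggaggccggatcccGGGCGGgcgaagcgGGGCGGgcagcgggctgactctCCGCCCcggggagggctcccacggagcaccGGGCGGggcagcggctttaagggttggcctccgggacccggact
Igfbp6 (chr15:102143936-102144185, plus strand): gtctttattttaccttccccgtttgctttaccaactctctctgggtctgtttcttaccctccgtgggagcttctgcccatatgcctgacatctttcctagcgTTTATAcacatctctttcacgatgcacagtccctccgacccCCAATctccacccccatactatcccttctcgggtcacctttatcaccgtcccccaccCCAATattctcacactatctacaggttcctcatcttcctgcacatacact

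CCAAT on either strand occurred 0 times in these windows of Igfbp5, Igf2r and Igfbp7 and 2 times in that of Igfbp6, starting 107 and 50 bases before the annotated start. Among members not shown, it began 142 bases before the start of Igf1 and 231 bases before 1 annotated start of Igf2. Over all 32851 RefSeq promoter windows of this length 33.8% held the motif. The GC box occurred 4 times in Igfbp7, 3 times in Igf2r and 0 times in Igfbp5 and Igfbp6, and 32.7% of all windows held it. It also occurred among the windows of Igf1r, Igfbp2 and Igf2, and was absent from those of Igf1, Igfbp3 and Igfbp4. Igfbp7 and Igf2r had 26 and 27 CpG dinucleotides here, Igfbp5 had 10 and Igfbp6 had 7. Among members not shown there were 42 in Igf1r, 32 in Igfbp3, 22 in Igfbp4 and 5 in Igf1. The windows of Igfbp2 had 11 and 14 CpG dinucleotides, and those of Igf2 1 to 22. The median over all windows was 6. The members shown thus share no 1 motif of those searched. No match says only that these letters are not in the window, and a match is not a binding site. The family is spread over chromosomes 1, 5, 7, 10, 11, 15 and 17. Igfbp5 and Igfbp2 are neighbours among protein-coding genes on chromosome 1, and Igfbp3 lies beside Igfbp1 on chromosome 11 (Igfbp1 had no row in the deposited table).

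In control cells the family's mRNA was mostly that of binding proteins and Igf2r. FPKM is scaled by length, so levels can be set side by side between genes. Igfbp7 led at 123 ± 7.15 FPKM (SD, n = 3), above 96.7% of the table's genes, followed by Igfbp4 at 62.5 ± 0.743. Igfbp5 (36.1 ± 1.92) and Igf2r (34.5 ± 1.31) came next, and their library ranges overlapped, so their order is not set. Igf1r was at 5.88 ± 0.501 FPKM, so Igf2r was 5.58 to 6.12 times as abundant as Igf1r in the 3 controls. Igfbp6 (1.47 ± 0.257), Igf1 (1.02 ± 0.124) and Igfbp3 (0.973 ± 0.0651) were low, and the ranges of Igf1 and Igfbp3 overlapped. Igf2 was at 0.302 ± 0.174 FPKM and Igfbp2 at 0.0111 ± 0.00966. In siYBX1 the order of means was the same except that Igf2r stood above Igfbp5.

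**Figure D1:**
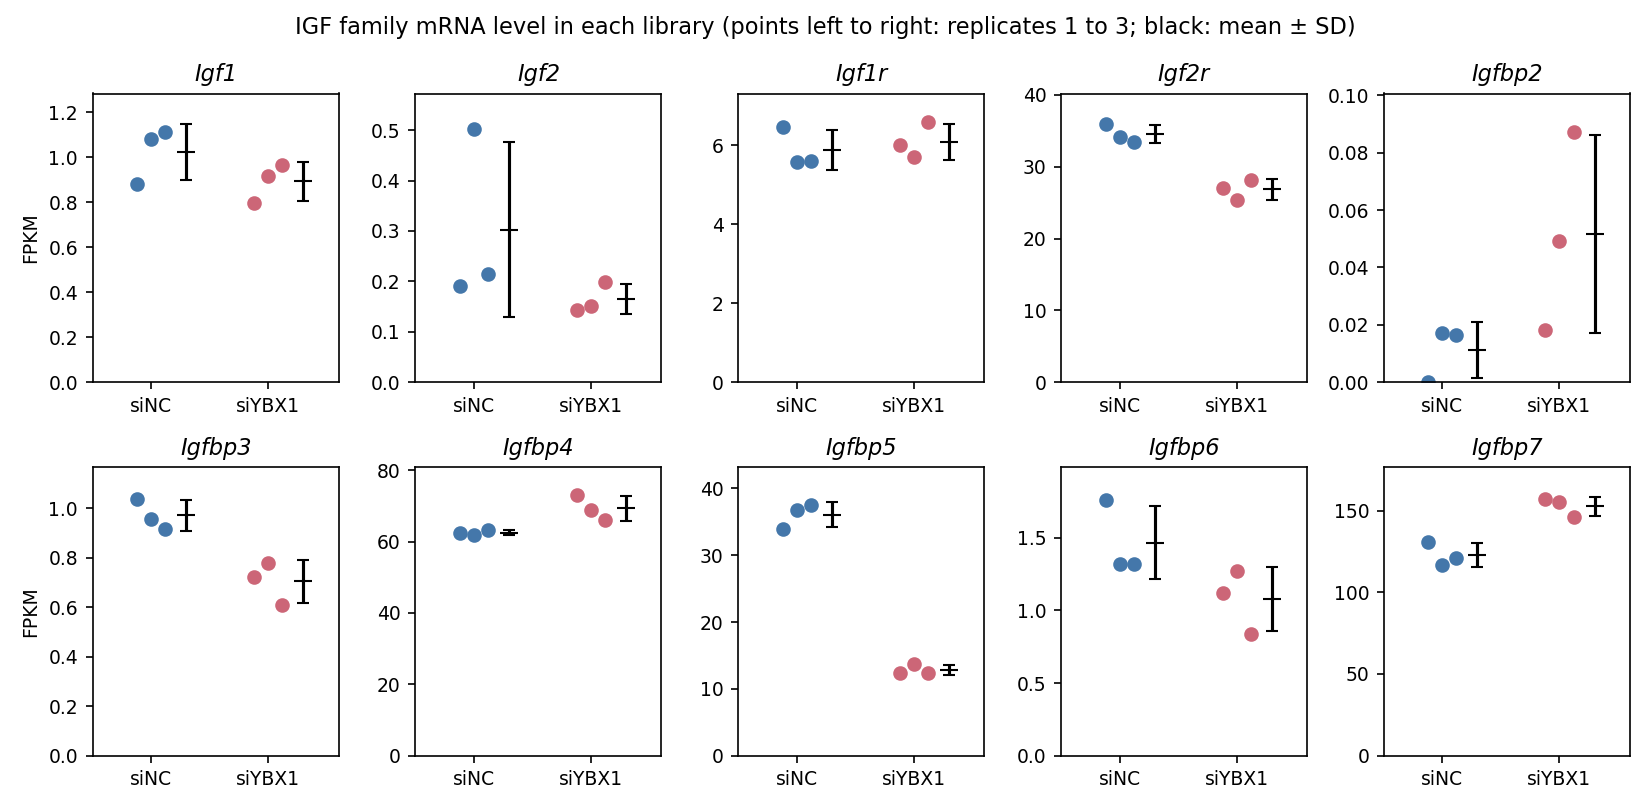
FPKM (y axis, linear from 0, a separate scale per gene) of the 10 IGF family genes in 3 siNC (blue) and 3 siYBX1 (red) libraries, with mean ± SD in black. The siYBX1 points of Igfbp5 lie at 12.3 to 13.7 FPKM, far below the siNC points at 33.9 to 37.5, while those of Igf1, Igf2 and Igf1r overlap between groups.

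Since the members were chosen with this contrast known, their differences are given as a description and no p-value is printed for a member. "Fell" and "rose" mark those past the threshold of the fit over all genes. A mean of at least 1 FPKM was needed for the fit, and 6 of the 10 passed it: Igf1r, Igf2r, Igfbp4, Igfbp5, Igfbp6 and Igfbp7. Of these 6, 2 fell (Igfbp5 and Igf2r) and 1 rose (Igfbp7), against 20.6% called among all genes tested. Their median log2 fold change was -0.10, and that of all genes tested -0.011. The 2 groups of libraries did not overlap for 7 of the 10 members, against 30.3% of the whole table (40.9% of the genes tested). The 7 include Igfbp2, where 1 read in siYBX1 replicate 1 exceeded 1 read in siNC replicates 2 and 3 only after scaling. Nothing is read from these shares, because the contrast served to pick the genes.

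The ligands were scarce. Igf1, the ligand that growth hormone induces, was at 0.880, 1.08 and 1.11 FPKM in siNC replicates 1 to 3 and at 0.794, 0.914 and 0.967 in siYBX1 replicates 1 to 3, from 218 to 337 reads per library. Its groups overlapped, through siNC replicate 1, which lay below 2 of the siYBX1 libraries. Igf2, the imprinted fetal growth factor, was at 0.190, 0.502 and 0.215 FPKM in siNC and 0.144, 0.152 and 0.198 in siYBX1. One control library, siNC replicate 2 with 86 reads, stood above the rest: the other 2 controls had 33 and 38 reads and the siYBX1 libraries 23 to 33. Neither ligand passed when the filter on low values was dropped (7.56% of 16423 genes called) or with voom on the recovered reads (20.1% of 12175 genes called). There the log2 fold changes were -0.20 (SE 0.13) for Igf1 and -0.74 (SE 0.37) for Igf2.

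The receptors moved differently. Igf2r was at 36.0, 34.1 and 33.5 FPKM in siNC and at 27.1, 25.3 and 28.1 in siYBX1. Every siYBX1 library lay below every control, and the mean fell to 77.8% of control (log2 fold change -0.35, SE 0.06, 95% interval -0.48 to -0.23). Igf1r, the signalling receptor, was at 6.45, 5.57 and 5.60 FPKM in siNC and 5.99, 5.69 and 6.58 in siYBX1. Its groups overlapped and its log2 fold change was 0.04 (SE 0.07, 95% interval -0.12 to 0.21). Changes within that interval stay possible in this fit, and other fits shift it. The Igf2r to Igf1r ratio of FPKM was 5.58 to 6.12 in siNC and 4.27 to 4.53 in siYBX1. Long genes as a whole were slightly lower in siYBX1. In the longest 20% of genes tested, which holds both receptors, the median log2 fold change was -0.067 and 14.3% were called lower. After a correction for length Igf2r was at -0.28 (SE 0.05), still past the threshold, and Igf1r at 0.12 (SE 0.06).

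Igfbp5, which binds IGFs and matrix and is abundant in mesenchymal tissue, had the lowest log2 fold change of the 10341 genes tested. Its values were 33.9, 36.8 and 37.5 FPKM in siNC, from 6898 to 7747 reads, and 12.4, 13.7 and 12.3 in siYBX1, from 2318 to 2847 reads. The highest knockdown library was thus far below the lowest control. The mean fell 2.81-fold, from 36.1 ± 1.92 to 12.8 ± 0.799 FPKM (SD, n = 3 each), with a log2 fold change of -1.42 (SE 0.06, 95% interval -1.56 to -1.29). Ybx1 itself, at -1.07, had 2 tested genes below it. Igfbp2, the neighbouring gene, had 0, 1 and 1 reads in siNC and 1, 3 and 5 in siYBX1. With 3 reads or fewer in 5 of the 6 libraries, no fold is given.

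Igfbp7, a secreted protein that binds IGFs only weakly and also binds matrix, was at 131, 117 and 121 FPKM in siNC and 157, 155 and 146 in siYBX1. All siYBX1 libraries lay above all controls, and the mean rose 1.24-fold, from 123 ± 7.15 to 153 ± 5.86 FPKM (log2 fold change 0.31, SE 0.06, 95% interval 0.18 to 0.44). Igfbp7 is short, and in the shortest 20% of genes tested the median log2 fold change was 0.077 and 18.7% were called higher. After the correction for length it was at 0.24 (SE 0.06), still past the threshold, and without siNC replicate 1, the control with the highest Igfbp7 value, it was at 0.36. Igfbp4, an inhibitor of IGF action, was at 62.4, 61.8 and 63.2 FPKM in siNC and 73.0, 68.8 and 66.1 in siYBX1. Its groups did not overlap, but it did not pass (log2 fold change 0.15, SE 0.05).

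Igfbp6 and Igfbp3 had lower values in siYBX1 without passing. Igfbp6, which prefers IGF2 over IGF1, was at 1.76, 1.32 and 1.32 FPKM in siNC and 1.12, 1.27 and 0.837 in siYBX1 (log2 fold change -0.25, SE 0.10). It rests on 36 to 79 reads per library, and without siNC replicate 1 or without siYBX1 replicate 3 it was at -0.16. Igfbp3, the main IGF carrier of blood, was at 1.04, 0.959 and 0.916 FPKM in siNC and 0.724, 0.779 and 0.611 in siYBX1, from 82 to 146 reads. The groups did not overlap, and the siYBX1 mean was 72.4% of control. It lay below the filter, and passed neither without the filter (-0.21, SE 0.05) nor with voom (-0.47, SE 0.17).

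**Figure D2:**
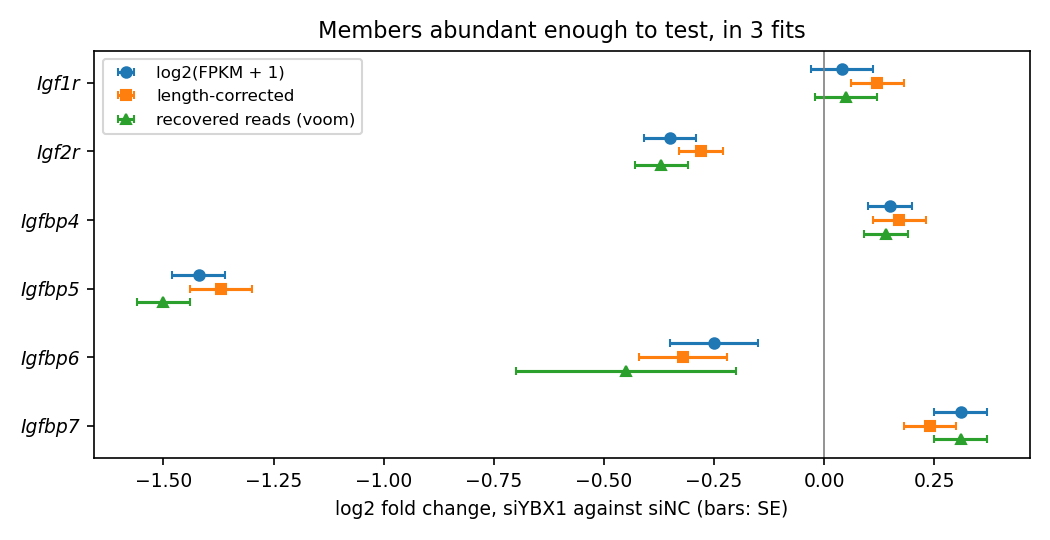
Log2 fold change (x axis) of the 6 tested members in the fit on log2(FPKM + 1) (circles), after the length correction (squares) and on recovered reads with voom (triangles), with SE bars. Igfbp5 lies between -1.50 and -1.37 in these 3 fits, Igf2r between -0.37 and -0.28, and Igfbp7 between 0.24 and 0.31.

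Summed over Igfbp2 to Igfbp7, binding protein mRNA was 230, 218 and 224 FPKM in siNC replicates 1 to 3 and 244, 240 and 226 in siYBX1 replicates 1 to 3. The ranges overlap through siNC replicate 1 and siYBX1 replicate 3, and would separate without either of them. Its make-up differed: Igfbp5 gave 14.7%, 16.9% and 16.7% of the sum in siNC replicates 1 to 3 and 5.07%, 5.72% and 5.44% in siYBX1 replicates 1 to 3. Igfbp7 gave 53.8% to 57.0% in siNC and 64.3% to 64.7% in siYBX1, and Igfbp4 27.1% to 28.3% and 28.7% to 29.9%. The ratio of Igfbp7 to Igfbp5 was 3.19 to 3.87 in siNC and 11.3 to 12.7 in siYBX1. Binding protein mRNA exceeded the summed ligands in every library, 215, 138 and 169 times in siNC replicates 1 to 3 and 194 to 261 times in siYBX1. Here too the ranges overlap through siNC replicate 1 and siYBX1 replicate 3. These are sums of mRNA levels and say nothing of protein.

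**Figure D3:**
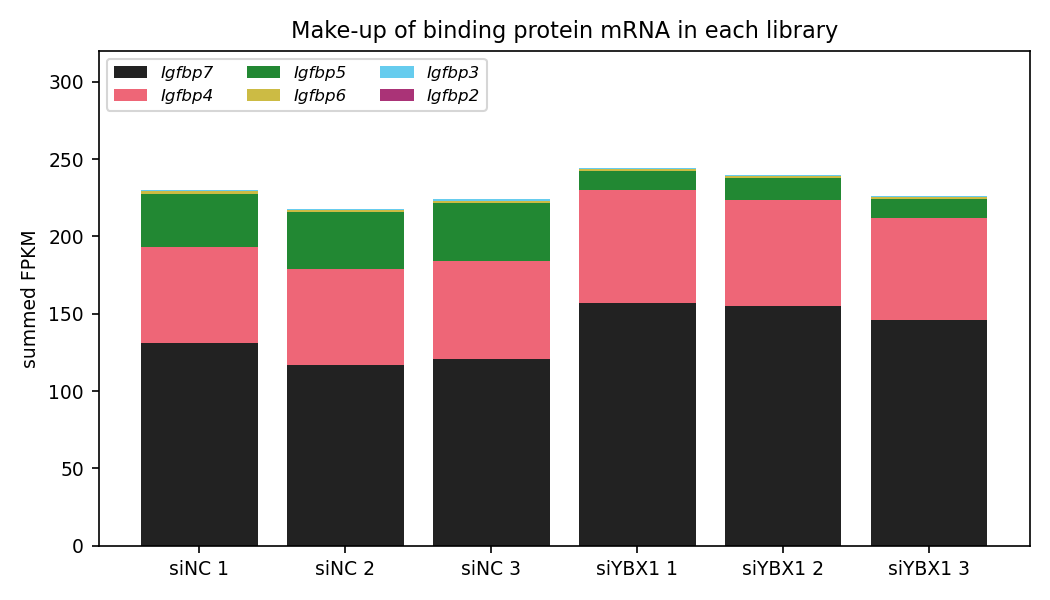
Summed FPKM (y axis) of the 6 binding protein genes in each library (bars), coloured by gene. The Igfbp5 segment is 33.9 to 37.5 FPKM in siNC and 12.3 to 13.7 in siYBX1, while the totals are 218 to 230 and 226 to 244.

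Around the members, 77 genes of the IGF system were grouped by role. Of these 70 had a row and 61 were tested: 10 were higher and 9 lower in siYBX1, against 20.6% called over all genes. Their median log2 fold change was -0.01, against -0.011 over all genes tested. The count of calls was 13 to 17 when single libraries were left out, and without siYBX1 replicate 1 the lower calls were 5. With no filter on low values the count was 11 of 70, against 7.56% of all 16423 genes. The calls of Ccn1, Esm1, Kazald1, Socs1, Irs1, Ptpn1, Grb14 and Gnptab were then lost. Without siNC replicate 1, log2 fold changes were -0.35 for Kazald1, -0.38 for Stc1, -0.75 for Ccn3 and 0.64 for Ccn1, all still called. Earlier results for some of these genes were known when the lists were made.

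Of 5 tested proteases of the binding proteins and their inhibitors, 2 rose and 2 fell (median 0.23). Over all genes tested 9.54% were higher and 11.1% lower, and lists as short as these are given as counts only. Htra3, a serine protease with an IGFBP-like domain, rose from 3.71, 4.02 and 3.50 FPKM in siNC to 5.94, 6.21 and 6.43 in siYBX1 (log2 fold change 0.60, SE 0.07, limma adjusted p = 0.000316). Stc1, a stanniocalcin that inhibits the binding protein protease PAPP-A, fell from 11.6, 9.22 and 9.55 to 6.45, 7.57 and 6.95 FPKM (-0.47, SE 0.09, limma adjusted p = 0.00438). In both genes the groups are separate. Adamts1, a secreted metalloproteinase, fell from 240.0 ± 3.52 to 182 ± 1.35 FPKM (-0.40), and Prss23, a secreted serine protease, rose from 30.5 ± 0.126 to 37.8 ± 0.482 (0.30). Htra1 did not pass (0.23, limma adjusted p = 0.177), and Pappa, Pappa2 and Stc2 lay below 1 FPKM. Of 9 tested genes of other IGFBP-domain proteins, 3 rose and 2 fell (median 0.13): Ccn2 (1.44), Ccn1 (0.52) and Esm1 (0.37) against Ccn3 (-0.63) and Kazald1 (-0.47). The first 2 and Ccn3 encode matricellular proteins and Esm1 a secreted proteoglycan. Kazald1 did not pass without siYBX1 replicate 1 (-0.38).

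In the 3 signalling lists together 7 of 35 tested genes were called, against 20.6% over all genes. Among 14 tested genes of the insulin receptor and its adaptors, 2 rose and 2 fell (median -0.02). Sh2b2, the adaptor APS, fell from 14.5 ± 0.823 to 10.5 ± 0.0631 FPKM (log2 fold change -0.44, SE 0.06, limma adjusted p = 0.000842). Irs1, a main substrate of IGF1R, had a log2 fold change of -0.20 (limma adjusted p = 0.0413), Ptpn1, a phosphatase of the insulin receptor, 0.19 (0.0469), and Grb14, an inhibitory adaptor, 0.27 (0.0303). Leaving out single libraries ended these 3 calls (5 of the 6 libraries for Irs1, and for Grb14, and each of the 6 for Ptpn1). Insr (-0.12) and Irs2 (-0.01) did not pass. In the PI3K, AKT and FOXO list 1 of 13 fell and none rose (median -0.08): Akt2, the AKT form most tied to insulin action in fat, went from 64.3 ± 1.75 to 53.2 ± 1.38 FPKM (-0.27, SE 0.05, limma adjusted p = 0.00484). Akt1 was at 0.04. Of 8 genes of the growth hormone axis Socs1, a feedback inhibitor of cytokine signalling, rose (0.51) and Stat5a fell (-0.19, a call lost without any 1 of 5 of the libraries), with a median of -0.03. The growth hormone receptor Ghr was at 39.0 ± 1.29 and 38.2 ± 2.85 FPKM.

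The next genes are tied to Igf2 mRNA and to the work of Igf2r. Igf2bp2, an RNA-binding protein first found on Igf2 mRNA, rose from 30.0, 27.7 and 27.8 FPKM in siNC to 36.7, 35.2 and 37.4 in siYBX1 (log2 fold change 0.34, SE 0.05, limma adjusted p = 0.00217). Igf2bp1, the other tested gene of its list, was at 0.15 (limma adjusted p = 0.107), and the list's median was 0.25. M6pr, the smaller cation-dependent mannose 6-phosphate receptor, rose from 62.1, 60.7 and 58.5 to 71.6, 75.6 and 72.5 FPKM (0.27, SE 0.05, limma adjusted p = 0.00482). Thus the 2 mannose 6-phosphate receptors had log2 fold changes of opposite sign, -0.35 for Igf2r and 0.27 for M6pr. In that list of 10 tested genes 1 rose and 1 fell (median 0.05), against 9.54% higher and 11.1% lower over all genes tested. The gene that fell, Gnptab of the enzyme that builds the tag, was at -0.18 (limma adjusted p = 0.0464), a call lost when any 1 library was left out. Of the imprinted growth genes other than the members Igf2 and Igf2r, Grb10 (133 ± 3.52 and 132 ± 3.03 FPKM) and Gnas (-0.13, limma adjusted p = 0.0885) were tested. Neither passed (median -0.07). With TPM (-0.19, limma adjusted p = 0.0319) and quantile normalization (-0.23, limma adjusted p = 0.0259) Gnas was called lower. In 13 of 15 alternatives it was not called. H19, Dlk1 and Meg3 had no row, and Plagl1, Mest, Peg3 and Cdkn1c lay below 1 FPKM. The direction of Grb10 turned with the setting.

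**Figure D4:**
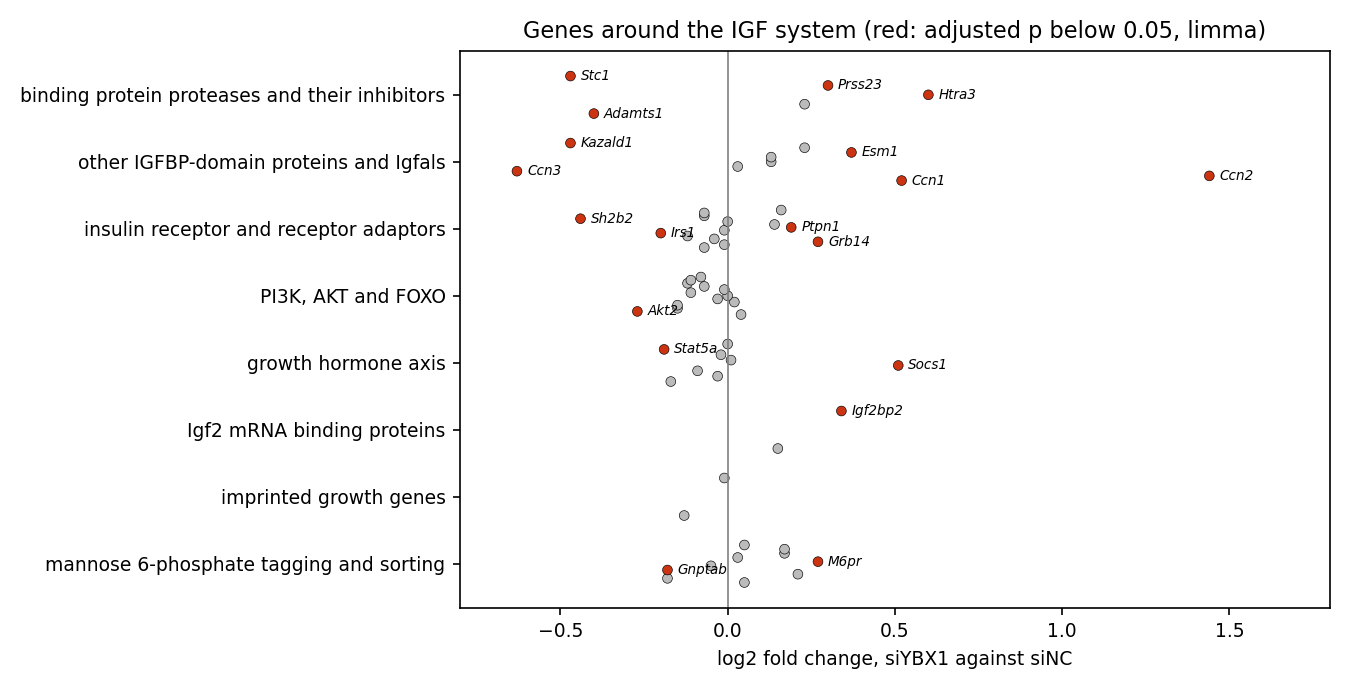
Log2 fold change (x axis) of each tested gene in 8 groups around the IGF system (y axis). Red points with names passed an adjusted p of 0.05 (limma), and grey points did not. Ccn2 at 1.44 is the highest and Ccn3 at -0.63 the lowest. PI3K, AKT and FOXO genes lie between -0.27 and 0.04.

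Likeness of pattern was measured as the mean absolute difference, over the 6 libraries, of log2(FPKM + 1) minus the siNC mean. The 3 tested genes most like Igfbp5 were Ybx1 (0.213), Scara5 (0.290), a ferritin receptor, and Timp2 (0.342), a metalloproteinase inhibitor. For Igfbp7 they were Vmp1 (0.0211), a membrane protein of autophagosome formation, Tpgs1 (0.0268), a subunit of the tubulin polyglutamylase, and Map7d1 (0.0287). This likeness rests on 6 libraries of 2 groups, and is a description. Centring on the siNC mean makes it depend largely on the fold change. Igfbp5 had the lowest log2 fold change, so the genes nearest to it are others with large falls.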

How the data were processed

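RNA-seq libraries took 1.3 µg of total RNA each, per the labels' protocols. Tools named in the submitters' processing notes are fastp, HISAT2 and HTSeq, with GRCm39 as build. Neither their versions nor their roles are given. The authors deposited FPKM values in 1 table. Its columns con1 to con3 and si1 to si3 were assigned to siNC and siYBX1 by name and replicate number. Strandedness is not given in the sources used here. Low FPKM values move in steps of 1 read. Relative depth was taken from the modal ratio of values between libraries, and for each gene the fewest reads were sought that made all its values whole within 0.01 reads. This succeeded for 16421 of 16423 genes (99.99%). Where all 6 read numbers of a gene share a divisor, reads and length are underestimated, and so are the totals. For a 2 kb gene 1 read equals 0.0146 to 0.0161 FPKM.

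Values were tested as log2(FPKM + 1) in limma 3.58.1 (R 4.3.3) with its trend option, two-sided. Genes needed a mean of 1 FPKM or more, with Benjamini-Hochberg adjustment over all genes tested. Fold changes on that scale understate the change of low genes. The script was tested on simulated data, with the same extra spread set for all genes and no outlying library. That test does not show how the fit fares with the spread of these data. Alternatives were pseudocounts of 0.1 and 0.5, no filter or a mean of 5 FPKM, TPM, quantile normalization, a replicate block, and leaving out each library. Voom on recovered reads (mean of at least 10) and a loess correction for length (span 0.3) were chosen after seeing the data. Members and lists were chosen with earlier results of these data known, and 1 listed gene is not reported here. All members were named, with up to 3 rises and 3 falls passing per list (otherwise the 2 most abundant tested genes), and the 3 genes closest in pattern to the member with the largest fall and to that with the largest rise. Other tools were Python 3.11.15, numpy 2.4.6, pandas 2.3.3 and matplotlib 3.10.9.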

Additional observations from a re-analysis of the deposited data

How the results depend on the processing

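The members called (2 lower, 1 higher) stayed Igfbp5, Igf2r and Igfbp7 in all 15 alternatives, with log2 fold changes of -1.52 to -1.37, -0.41 to -0.28 and 0.21 to 0.36. Igfbp4 (0.08 to 0.18) and Igfbp6 (-0.45 to -0.16) passed in none. Igf1r was at -0.00048 with TPM and -0.0047 to 0.10 when single libraries were left out. Grb10 was at 0.03 after the length correction and -0.03 to 0.01 without single libraries (0.0020 without siYBX1 replicate 2). Ybx1 kept its call throughout (-1.16 to -1.03).

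Genes called over the table were 1241 without a filter (577 higher, 664 lower), and 1199 to 2026 when single libraries were left out (547 to 970 higher, 604 to 1056 lower), the fewest without siYBX1 replicate 1. The genes around the IGF system gave 11 calls without a filter (5 higher), 6 higher calls with a mean of at least 5 FPKM, where 46 were tested, and 13 to 17 calls without single libraries (8 to 10 higher, 5 to 7 lower). The cause of these shifts was not tested. Deviations from the group means did not go together in libraries with the same replicate number (correlations of -0.306, -0.131 and -0.246). With 3 libraries per group, this cannot show whether such libraries were prepared together. The fit with the replicate block called 1346 genes (607 higher, 739 lower) and 14 around the IGF system.

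Igf1, Igf2, Igfbp2 and Igfbp3 rest on at most 337 reads per library, which limits what their values can show.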
